A study of Mus musculus with 36 samples.

Results

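Nephron progenitors (NP) and stromal progenitors (SP) of the ex-fetu mouse kidney at E12.5 were compared in 8 of the 36 RNA sequencing libraries of the series, 4 of each cell type, taken by their titles. The cells came from embryos of CD1 mice, an outbred stock, with no transgene and no treatment given in the labels, and 1 library was made from the kidneys of a whole litter, so that a replicate was a pool of sibling embryos. The ureter was cut away, cells carrying CD31 or EpCAM/RET were gated out, and the cells left were sorted on 2 surface proteins. NP were those high in ITGA8 and low in PDGFRA, and SP were those low in ITGA8 and high in PDGFRA, the stromal gate taking only the cells richest in PDGFRA. The levels of *Itga8* and *Pdgfra* therefore describe the sort and are not findings. The same pair of cell types from E11.5 kidneys of CD1 mice, and the pair iNP and iSP made from E14 mouse embryonic stem cells and sorted through the same gates, had 4 libraries for each cell type and serve as comparisons at the end. RNA was measured as CPM values scaled by the authors, called normalised CPM here, which compare a gene between libraries but not 1 gene with another.

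NP gather as a cap around each tip of the ureteric bud, where they either renew themselves or turn into the epithelium of the nephron, a choice held by transcription factors such as SIX2 and PAX2 and by WNT, FGF and BMP ligands. They send GDNF to the RET receptor of the bud, which branches in response. SP surround the caps, are known by the transcription factor FOXD1, make retinoic acid and matrix, and give rise to the interstitium, the mesangium and the pericytes of the kidney.

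NP libraries held 31.1 to 43.7 M reads on genes (median 40.3 M), and SP libraries 18.6 to 52.5 M (median 22.1 M). The worth of 3 reads, taken as the limit of detection, was 0.0679 to 0.0923 normalised CPM in NP and 0.0605 to 0.163 in SP. The cell types accounted for 70.8% of the variance of the log2 values over the 13772 genes tested, and the replicate numbers 1 to 4, which the titles give to NP and SP alike, for 24.2%. Both libraries numbered 1 stood apart: 257 genes were over 2 times higher, and 185 over 2 times lower, in both than in the median of the other libraries of their group. *Hspa1a*, which encodes the inducible chaperone HSP70, was at 194, 1.10, 1.177 and 1.183 normalised CPM in NP 1 to 4 and at 512, 7.32, 6.65 and 7.16 in SP 1 to 4. Both libraries numbered 2 had 109 genes over 2 times lower and 19 over 2 times higher. *Mki67*, a marker of dividing cells, was at 455, 6.45, 352 and 263 in NP 1 to 4 and at 501, 88.3, 302 and 272 in SP 1 to 4, and *Xist* was lowest in number 2 as well, at 547, 33.5, 243 and 168 and at 582, 141, 439 and 271. The summed level of the 30 cell cycle genes listed was instead highest in number 2. It was 6087, 7378, 6140 and 6274 in NP 1 to 4 and 7436, 8034, 6885 and 7268 in SP 1 to 4. For numbers 3 and 4 the counts were 7 and 12 genes higher, and 18 and 14 lower. Kidneys were used fresh or after storage in the cold, and the sources used here do not give which library had which; neither do they say what a number stands for. Counts without number 1, and with the number as a block, are therefore given as well where they move a count by over 1.5 times.

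**Figure D1:**
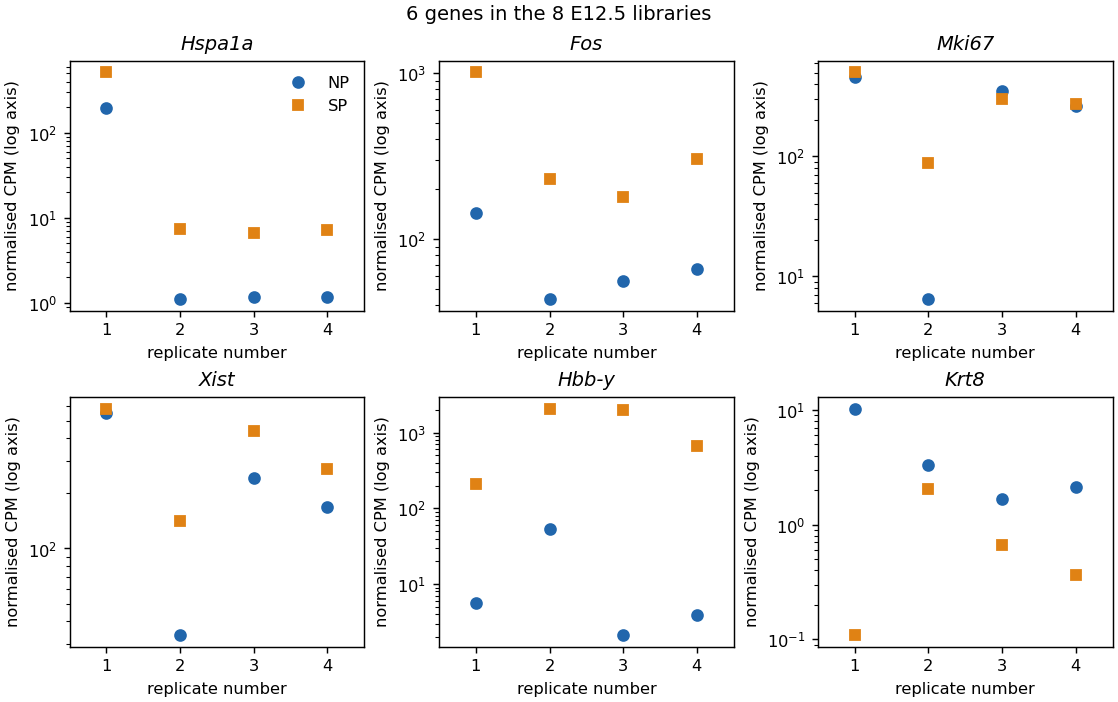
Normalised CPM (log axis) of 6 genes in each of the 8 libraries, by replicate number, with NP as blue circles and SP as orange squares. *Hspa1a* and *Fos* were highest in both libraries numbered 1, *Mki67* and *Xist* were lowest in both numbered 2, *Hbb-y* was higher in every SP library than in every NP library, and *Krt8* was highest in NP 1.

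The 4 markers went with the labels. *Six2* (ENSMUSG00000024134; chromosome 17 of GRCm38 from 85684277 to 85688274), which keeps NP undifferentiated, was at 422, 771, 549.7 and 621 normalised CPM in NP and at 4.39, 6.35, 1.15 and 1.19 in SP, a log2 fold change of 7.29 (NP minus SP on log2 of the value plus 1; standard error 0.40; limma adjusted p = 1.4e-06). *Foxd1* (ENSMUSG00000078302; chromosome 13 of GRCm38 from 98354242 to 98359305), the transcription factor that defines SP, was at 546, 717, 758 and 649.7 in SP and at 54.2, 46.5, 45.8 and 52.1 in NP (log2 fold change -3.72, SE 0.13; adjusted p = 1.8e-07). Neither gene overlapped between the groups, yet *Foxd1* remained well above the limit of detection in every NP library. Of the sort markers, *Itga8* (ENSMUSG00000026768; chromosome 2 of GRCm38 from 12106632 to 12301922) was at 99.1, 146, 146 and 163 in NP and 13.98, 20.2, 19.7 and 16.6 in SP, and *Pdgfra* (ENSMUSG00000029231; chromosome 5 of GRCm38 from 75152292 to 75198215) at 7.26, 2.13, 1.52 and 1.34 and 204, 612, 551 and 622. In these sorted pools, fewer cells of a kind and less RNA in each cell cannot be told apart.

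The promoters of *Six2* and *Foxd1* are shown because the cell types are known by these genes. Each run holds 300 bases of GRCm38.p6 as RefSeq gives them, from 250 before the start of the transcript, written 5′ to 3′ along the gene. Capitals mark every CCAAT and every GGGCGG on either strand (CCGCCC where the other strand holds it). Of 32544 different promoters of this length 37.4% held CCAAT and 35.9% held GGGCGG. *Six2* is read from the minus strand of chr17:85688205-85688504 and *Foxd1* from the plus strand of chr13:98353995-98354294.
Six2: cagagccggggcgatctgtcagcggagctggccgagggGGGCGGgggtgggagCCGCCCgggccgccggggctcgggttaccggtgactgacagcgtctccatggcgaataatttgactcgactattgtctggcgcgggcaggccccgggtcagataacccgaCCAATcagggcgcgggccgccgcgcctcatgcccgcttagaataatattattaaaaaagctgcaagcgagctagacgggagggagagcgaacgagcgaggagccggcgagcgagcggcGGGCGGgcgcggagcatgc
Foxd1: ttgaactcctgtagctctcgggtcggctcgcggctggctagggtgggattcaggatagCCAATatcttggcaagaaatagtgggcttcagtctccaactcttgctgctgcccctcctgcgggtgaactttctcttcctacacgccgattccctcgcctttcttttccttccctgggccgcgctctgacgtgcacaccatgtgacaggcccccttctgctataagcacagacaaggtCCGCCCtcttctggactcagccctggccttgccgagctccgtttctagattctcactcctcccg

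Between NP and SP, 4789 of the 13772 genes tested passed an adjusted p of 0.05 (limma, 34.8%), 2337 of them higher in NP (17.0%) and 2452 higher in SP (17.8%); such genes are called here, and the share of a list that was called is read against these shares. In 4358 of them (31.6% of the genes tested) no NP library overlapped an SP library, and the median log2 fold change of all genes tested was 0.05. Blocking on the replicate number gave 7961 calls (57.8%), 4154 of them higher in NP, and these included every gene called without it. Without number 1 the calls numbered 6027 (43.8%), among them 96.9% of the 4789, and without number 2, 3 or 4 they numbered 4099, 2989 and 2910. When the size tested had to be over 1 on the log2 scale, 1027 genes were called, of which 661 were higher in SP.

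The 12 genes with the largest fold change toward NP held 5 transcription factors of the early kidney and the *Eya1* co-activator. *Uncx* (ENSMUSG00000029546; chromosome 5 of GRCm38 from 139543494 to 139548179), a paired-type homeobox gene, had the largest difference: 498, 482, 575 and 556 normalised CPM in NP against 4.66, 5.32, 0.717 and 0.596 in SP, with a log2 fold change of 7.39 (adjusted p = 2.1e-06). *Pax2*, needed for the metanephric mesenchyme, was at 414, 566, 756 and 728 and 4.17, 8.99, 2.10 and 1.24 (7.11, adjusted p = 1.9e-06). *Pax8*, its relative, was at 63.4, 114.8, 131 and 119.9 in NP and at 0.488, 2.72, 0.574 and 0.229 in SP (5.85, adjusted p = 2.4e-06). In all 3 genes the lowest NP library lay far above the highest SP library. *Lmx1b*, a LIM homeobox gene better known from the glomerulus, was at 49.7, 62.3, 135 and 100.2 and 0.271, 0.826, 0.191 and 0.321 (5.88, adjusted p = 9.1e-07). *Eya1*, a partner of SIX2, was lower in NP 1 than in the other NP libraries, at 165, 474, 463 and 481, and at 3.85, 9.11, 6.17 and 3.12 in SP (5.88, adjusted p = 3.9e-06). *Rspo1*, a secreted protein that strengthens WNT signals, had the smallest p of them all, at 126, 128, 146 and 142 against 0.921, 1.47, 0.813 and 1.01 (6.06, standard error 0.14, adjusted p = 6.9e-08). The others were *Six2*, the secreted proteoglycan *Spock2* (716 to 1071 against 9.48 to 16.5; 6.25), *Crym*, which binds thyroid hormone (117 to 171 against 0.918 to 2.38; 5.74), *Sel1l3* (5.78), the actin bundler *Espn* (5.56) and *Moxd1* (5.33).

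The 12 genes with the largest fold change toward SP held 3 collagen chains, 3 globins and the collagen receptor *Ddr2*. *Pdgfra*, the sort marker, came first. *Ddr2* (ENSMUSG00000026674; chromosome 1 of GRCm38 from 169972307 to 170110762) was at 2.40, 1.01, 1.15 and 1.34 normalised CPM in NP and at 83.3, 264, 247 and 277 in SP (-6.35, adjusted p = 1.8e-06). *Hic1*, a transcriptional repressor of mesenchymal cells, was at 12.8, 6.82, 5.48 and 7.10 and 299, 571, 576 and 623 (-5.84, adjusted p = 7.4e-07). For both genes, SP 1 was the lowest SP library and NP 1 the highest NP library, and the groups did not overlap. *Crabp1*, which binds retinoic acid in the cytoplasm, was at 9.36, 8.34, 4.78 and 6.15 in NP and at 348, 434, 381 and 395 in SP (-5.61, adjusted p = 1.8e-07). *Gata6*, a zinc finger transcription factor, was at 7.94, 1.28, 1.58 and 1.31 and 180.3, 115.2, 144 and 107 (-5.34, adjusted p = 1.1e-05). The collagen chains *Col3a1*, *Col6a3* and *Col1a2* and the globins *Hbb-y*, *Hba-x* and *Hba-a1* are described with their groups.

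**Figure D2:**
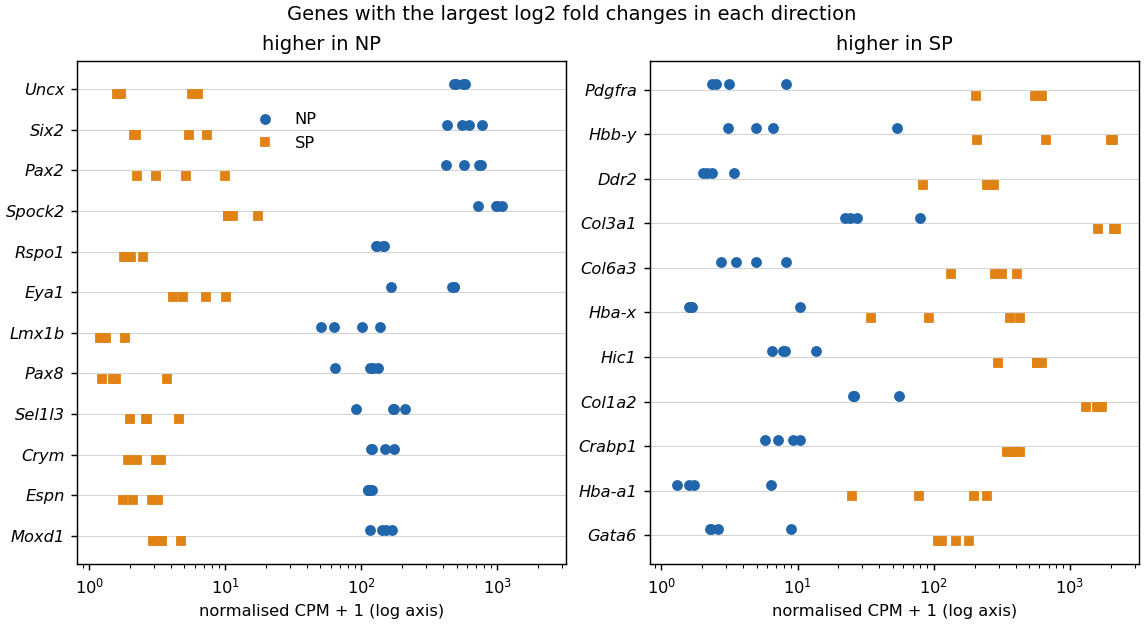
Normalised CPM (log axis, value plus 1) in each NP library (blue circles) and each SP library (orange squares) of the 12 genes with the largest log2 fold change toward NP and 11 of the 12 toward SP, among called genes whose groups do not overlap. Each of the 12 NP genes was at most 16.5 in the SP libraries, and the globins spread most between the SP libraries.

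Most regulators of the NP state were higher in NP. Of the 21 genes listed, 20 passed the filter on low values, 17 were called higher in NP and 0 higher in SP, and the median log2 fold change was 2.85, against 0.05 over all genes tested; the list holds *Itga8*, which the sort used. *Cited1*, a marker of the least committed NP, was at 60.6, 76.5, 46.8 and 68.5 normalised CPM in NP and 4.01, 3.43, 2.01 and 2.43 in SP (4.02, adjusted p = 1.0e-06). *Osr1*, a zinc finger gene of the intermediate mesoderm, was at 107, 131, 98.2 and 123 and 7.48, 6.55, 6.22 and 6.65 (3.90, adjusted p = 1.8e-07). Some regulators were shared more evenly: *Sall1* was at 340.5 to 581 in NP and 88.8 to 239.5 in SP (1.32, adjusted p = 0.0104). *Wt1* was at 326 to 525 and 114 to 246 (1.22, adjusted p = 0.00477). *Hoxa11* was at 106 to 131 and 59.5 to 72.2 (0.84, adjusted p = 3.8e-04). None of the 3 overlapped between the groups. Among the 3 tested members that were not called, *Gdnf*, the ligand of RET, was at 86.4, 77.4, 60.4 and 95.2 in NP and at 91.2, 75.5, 66.1 and 86.9 in SP (-0.01, standard error 0.17, adjusted p = 0.97), and the groups overlapped. *Hoxc11* was at 26.7 to 41.0 and 29.4 to 35.4 (0.03, adjusted p = 0.914). *Dapl1*, the member that was not tested, was under the limit of detection in all 8 libraries.

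Most genes of commitment and of the first epithelium were higher in NP. Of 17 listed genes 15 were tested, 11 were called higher in NP and 1 higher in SP (80.0% called; 12 and 2 with the block, 11 and 2 without number 1), with a median log2 fold change of 2.26. *Wnt4*, the ligand that drives the change to epithelium, was at 117, 129.6, 157 and 171 normalised CPM in NP and 12.1, 19.2, 29.0 and 22.0 in SP (2.79, adjusted p = 2.0e-05). *Lhx1*, a LIM homeobox gene of the renal vesicle, was at 20.9, 25.9, 27.0 and 39.9 and 0.379, 1.09, 0.191 and 0.184 (4.34, adjusted p = 1.5e-06). *Fgf8*, which acts upstream of it, was at 15.0, 23.2, 21.2 and 25.0 and 0.108, 0.302, 0.335 and 0.138 (4.16, adjusted p = 3.2e-07). In both genes all SP libraries were near 1 or lower. *Lef1*, which carries WNT signals to the genome, went the other way, at 17.8, 17.7, 26.3 and 23.9 in NP and 27.2, 41.4, 47.6 and 54.3 in SP (-0.94, adjusted p = 0.0103), a call that was lost without number 2 or 4 (-0.86 and -0.87; adjusted p = 0.062 and 0.0596). The cadherin gene *Cdh6* was lower in NP within each number, at 5.45, 22.6, 23.9 and 30.6 against 19.9, 65.8, 64.9 and 69.9, while the groups overlapped; its log2 fold change of -1.44 was not called (adjusted p = 0.0688) and was called with the number as a block (adjusted p = 2.9e-05) and without SP 1 (-1.87; adjusted p = 0.0151).

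Most genes of the renal stroma were higher in SP. All 19 listed were tested, 17 were called higher in SP and 0 higher in NP, and the median log2 fold change was -2.25; with the block all 19 were called. The list holds *Pdgfra*, which the sort used. *Meis1*, the stromal marker used on tissue sections, was at 80.3, 89.9, 131 and 112 normalised CPM in NP and 185, 268, 298 and 284 in SP (-1.32, adjusted p = 6.5e-04), and *Meis2* was not called, at 239 to 438 and 386 to 601 (-0.55, adjusted p = 0.0915, with the block 6.0e-04 and without SP 1 0.0284). *Sfrp1*, a secreted WNT inhibitor, was at 32.3, 36.5, 34.003 and 37.1 and 282, 416, 357 and 419 (-3.35, adjusted p = 3.5e-07). *Ecm1*, extracellular matrix protein 1, was at 13.3, 2.01, 3.67 and 2.55 and 141, 116, 125 and 106 (-4.56, adjusted p = 3.0e-05). NP 1 held more *Ecm1* than the other NP libraries, and the groups did not overlap for either gene.

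Transcription factors of the ureteric mesenchyme were also found on the stromal side, although the ureter had been cut away. Of 14 listed genes 12 were tested, 8 were called higher in SP and 1 higher in NP (75.0% called; 8 and 2 with the block or without number 1; median log2 fold change -1.69). *Tbx18*, the T-box gene that defines the ureteric mesenchyme, was at 2.40, 0.270, 0.679 and 0.515 normalised CPM in NP and 64.4, 63.1, 73.1 and 58.7 in SP (-5.17, adjusted p = 1.2e-06). *Tbx2* was at 16.5, 3.75, 4.30 and 3.16 and 195, 157, 205 and 183 (-4.82, adjusted p = 1.5e-05). *Tbx3* was at 8.56, 1.74, 1.25 and 1.23 and 42.4, 25.3, 46.3 and 35.0 (-3.46, adjusted p = 2.4e-04). For these 3 genes every SP library was above every NP library, and NP 1 was the highest NP library. The smooth muscle genes *Myocd*, a co-activator (0.129 to 0.515 in NP, 2.60 to 7.65 in SP; -2.27, adjusted p = 1.2e-04), and *Acta2*, smooth muscle actin (2.92 to 7.70, 16.5 to 32.5; -2.10, adjusted p = 2.7e-04), were higher in SP, and *Myh11* stayed at 0.766 to 1.15 in SP and 0 to 0.249 in NP. *Osr2*, the exception, was at 14.3, 23.4, 18.8 and 24.9 in NP and 2.33, 1.83, 1.10 and 1.01 in SP (3.06, adjusted p = 7.2e-06).

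Retinoic acid is made by retinaldehyde dehydrogenases, bound in the cytoplasm by CRABP proteins, read by RAR and RXR receptors, and broken down by CYP26 enzymes. Of the 18 genes listed for it, 17 were in the table and 15 were tested, with 10 called higher in SP and 3 higher in NP (86.7% called; median log2 fold change -1.71). The synthetic enzyme *Aldh1a2* was at 188, 283, 271 and 267 normalised CPM in NP and 965, 1383, 1158 and 1302 in SP (-2.25, standard error 0.17, adjusted p = 7.3e-06). *Rdh10*, which makes the retinaldehyde that ALDH1A2 uses, was higher in NP, at 209, 427, 314 and 305 against 129, 165, 142 and 137 (1.09, adjusted p = 0.00217). Consecutive steps of the pathway thus had their higher level in different cell types. Among the receptors, *Rarg* was at 5.39, 4.78, 4.28 and 5.94 and 89.6, 128, 125 and 135 (-4.29, adjusted p = 2.1e-07). *Rarb* was at 40.4, 56.3, 44.2 and 39.5 and 124, 182, 174 and 165 (-1.81, adjusted p = 2.3e-05). *Rara* was at 85.2 to 119 and 142 to 186 (-0.66, adjusted p = 0.00503). *Rxra* was at 29.0 to 47.3 and 95.5 to 163 (-1.71, adjusted p = 1.7e-04). None of the 4 receptor genes overlapped between the groups. *Cyp26b1*, which degrades retinoic acid, was at 1.82, 2.48, 2.40 and 4.04 and 7.85, 15.8, 14.1 and 14.7 (-1.93, adjusted p = 2.4e-04). *Dhrs3*, which turns retinaldehyde back to retinol, was at 23.2 to 31.1 and 59.3 to 133 (-1.95, adjusted p = 2.3e-04). *Cyp26a1*, another of the degrading enzymes, was not tested, at 0.308, 0.123, 0.249 and 0.0772 in NP and 0.163, 0, 0.0478 and 0.0459 in SP.

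The promoters of *Rarb* and *Cyp26a1* are shown because both hold GTTCA 2 times in the same direction with 6 bases of any kind between, the core of a retinoic acid response element, while only *Rarb* was measured at a level that could be compared. Of 14 genes of the list with a promoter in the RefSeq table, these 2 held the motif on either strand, as did 25 of the 32544 promoters (0.0768%). The runs are given as above, *Rarb* from the minus strand of chr14:16575427-16575726 and *Cyp26a1* from the plus strand of chr19:37697558-37697857, and capitals mark the motif, which *Cyp26a1* carries on the other strand. It spans positions -52 to -37 of *Rarb* and -32 to -17 of *Cyp26a1*, where -1 is the base before the start. A match of letters does not show that a receptor binds there.
Rarb: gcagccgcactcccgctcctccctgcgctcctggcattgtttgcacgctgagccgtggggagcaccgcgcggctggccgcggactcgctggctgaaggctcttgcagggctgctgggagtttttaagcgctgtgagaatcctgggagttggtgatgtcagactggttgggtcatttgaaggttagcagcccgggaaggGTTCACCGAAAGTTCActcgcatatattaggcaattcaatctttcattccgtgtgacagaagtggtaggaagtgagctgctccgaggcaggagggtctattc
Cyp26a1: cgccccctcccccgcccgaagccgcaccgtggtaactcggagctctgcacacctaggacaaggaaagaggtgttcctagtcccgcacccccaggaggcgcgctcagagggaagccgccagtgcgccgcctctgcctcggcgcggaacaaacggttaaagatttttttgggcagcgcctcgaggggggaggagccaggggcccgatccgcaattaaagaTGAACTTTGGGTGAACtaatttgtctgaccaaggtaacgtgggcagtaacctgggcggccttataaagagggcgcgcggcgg

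**Figure D3:**
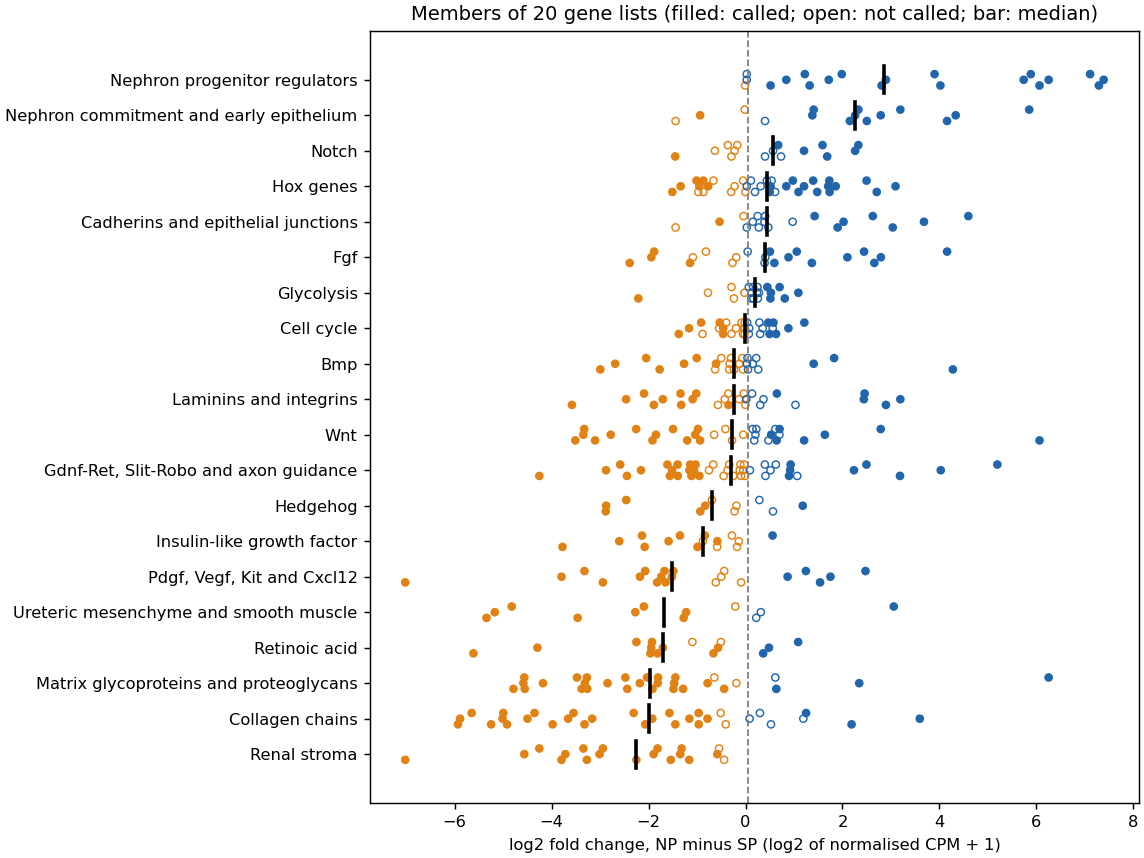
Log2 fold change (NP minus SP) of every tested member of 20 gene lists, 1 point for each gene, filled where the gene was called and open where it was not, with the list's median as a bar. The medians run from 2.85 for the NP regulators to -2.25 for the renal stroma, and the median over all 13772 genes tested is drawn as a line at 0.05.

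WNT signals run from secreted ligands to Frizzled and ROR receptors, with R-spondins as amplifiers and SFRP and DKK proteins as inhibitors. Of 35 genes listed, 31 were tested, 7 were called higher in NP (22.6%, against 17.0% of all genes) and 13 higher in SP (41.9%, against 17.8%; 9 and 15 with the block; median log2 fold change -0.28). Ligands divided between the cell types. *Wnt4* was higher in NP, as given above, whereas *Wnt5a* was at 7.63, 5.69, 3.92 and 4.19 normalised CPM in NP and 44.5, 66.9, 71.4 and 66.1 in SP (-3.33, adjusted p = 3.7e-06). *Wnt11* was at 20.9, 4.05, 3.78 and 4.91 and 82.4, 52.9, 59.1 and 62.3 (-3.10, adjusted p = 4.8e-04). *Wnt11* is also made by the tips of the ureteric bud, whose libraries of E12.5 held 133 to 142. The receptors of WNT5A went with it: *Ror1* was at 1.91, 7.28, 4.89 and 6.15 in NP and 23.6, 98.9, 78.1 and 87.4 in SP (-3.51, adjusted p = 3.3e-04). *Ror2* was at 35.3 to 62.4 and 93.0 to 249.2 (-1.85, adjusted p = 0.00152). Of the Frizzled receptors, *Fzd1* was higher in SP (62.9 to 103 against 319.8 to 455; -2.26, adjusted p = 9.4e-06) and *Fzd4* higher in NP (178 to 193 against 103 to 129; 0.64, adjusted p = 0.00138). The inhibitor *Frzb* was higher in NP, at 24.2, 67.9, 59.3 and 51.1 against 9.48, 16.3, 17.0 and 16.9 (1.64, adjusted p = 0.0031), and the inhibitors *Sfrp1* and *Dkk3* (2.89 to 4.68 against 26.6 to 32.5; -2.78, adjusted p = 1.4e-06) were higher in SP. *Axin2*, a general target of canonical WNT signals, was not called, at 63.5, 24.3, 36.3 and 39.9 in NP and 84.2, 35.3, 51.6 and 47.5 in SP (-0.42, adjusted p = 0.348), and was called with the block (adjusted p = 0.00346).

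Several FGF ligands were higher in NP. Of 23 genes listed 21 were tested, with 10 called higher in NP and 4 higher in SP (66.7% called; 12 and 7 with the block; median log2 fold change 0.41). Beside *Fgf8*, *Fgf9* was at 5.29, 5.37, 4.98 and 5.20 normalised CPM in NP and 0.217, 0.161, 0.143 and 0.0459 in SP (2.45, adjusted p = 4.5e-07). *Fgf20* was at 4.03, 9.56, 6.66 and 7.25 and 1.35, 0.585, 0.765 and 0.505 (2.10, adjusted p = 1.1e-04). *Fgf10*, which acts on the bud, was at 51.4, 86.8, 76.2 and 74.3 and 9.59, 10.6, 10.8 and 10.6 (2.66, adjusted p = 2.7e-06). No SP library reached an NP library for any of the 3. *Fgf2* was higher in SP, at 1.75, 1.30, 0.928 and 1.93 against 6.61, 12.9, 10.998 and 20.2 (-2.39, adjusted p = 1.7e-04). Targets of FGF signals did not move one way: the transcription factor *Etv4* was higher in NP (152 to 179.5 against 54.2 to 78.9; 1.37, adjusted p = 4.3e-05), and the feedback inhibitors *Spry4* (20.5, 8.95, 7.15 and 9.93 against 74.1, 39.0, 28.5 and 39.1; -1.89, adjusted p = 0.00233) and *Dusp6* (35.0 to 95.8 against 101 to 135; -1.14, adjusted p = 0.0096) were higher in SP. The receptors *Fgfr1* (807 to 1006 against 589 to 706; 0.50, adjusted p = 0.00757) and *Fgfr2* (187 to 228 against 125 to 155; 0.59, adjusted p = 0.00299) differed by under 1 on the log2 scale. The call of *Dusp6* was lost without number 2 or 4 (-1.10 and -1.09; adjusted p = 0.0551 and 0.0718), and those of *Fgfr1* and *Fgfr2* without number 4 (0.48 and 0.56; adjusted p = 0.0796 and 0.051). *Il17rd*, a membrane inhibitor of FGF signals, was at 94.6 to 204 in NP and 12.9 to 28.3 in SP (2.79, adjusted p = 6.4e-05).

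The BMP ligands *Bmp7* and *Bmp5* had their higher level in different cell types. Of 26 BMP genes listed 25 were tested, 3 were called higher in NP and 7 higher in SP (40.0% called, near the 34.8% of all genes; median log2 fold change -0.24). With the block 3 and 12 were called. *Bmp7*, a survival and commitment signal of NP, was at 149, 219, 202 and 225 normalised CPM in NP and 7.80, 12.7, 7.41 and 9.50 in SP (4.28, adjusted p = 4.3e-07). *Bmp5* was the reverse, at 0.646, 0.736, 1.52 and 1.34 and 8.83, 19.5, 20.1 and 15.0 (-2.996, adjusted p = 2.1e-05), as were the ligand *Bmp3* (1.11 to 1.57 against 4.33 to 8.61; -1.77, adjusted p = 9.3e-05) and the antagonist *Chrd* (5.17, 1.35, 4.28 and 3.11 against 17.3, 12.96, 19.6 and 16.5; -2.05, adjusted p = 4.1e-04). *Bmp4* overlapped, at 19.8, 29.4, 25.1 and 27.6 in NP and 43.6, 15.5, 19.99 and 15.6 in SP (0.22, adjusted p = 0.623), SP 1 being the highest of the 8; without SP 1 it was called higher in NP (0.55; adjusted p = 0.0337). The target genes *Id1* (126 to 173 against 163 to 226; -0.33, adjusted p = 0.10), *Id2* and *Id3* were not called; with the block *Id1* was called higher in SP (adjusted p = 0.00364).

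Of 18 Notch genes listed 15 were tested, 6 were called higher in NP and 1 higher in SP (46.7% called, against 34.8% of all genes), 9 and 3 with the block and 6 and 2 without number 1. *Dll1*, a ligand that marks cells turning into epithelium, was at 18.8, 6.65, 10.03 and 10.4 normalised CPM in NP and 3.58, 0.847, 0.909 and 1.24 in SP (2.26, adjusted p = 8.2e-04). The targets *Hey1* (65.9, 121, 127 and 129 against 25.7, 16.6, 21.9 and 18.7; 2.33, adjusted p = 4.8e-05) and *Heyl* (36.7 to 90.2 against 12.4 to 30.9; 1.59, adjusted p = 0.0047) were higher in NP. The receptor *Notch3*, known from pericytes, was higher in SP (76.7, 77.5, 125 and 116 against 210.1, 255, 346 and 266; -1.45, adjusted p = 5.0e-04). *Hes1* was not called (69.2 to 151 against 60.2 to 272; -0.63, adjusted p = 0.332), and was called higher in SP with the block (adjusted p = 0.0251) and without SP 1 (-1.14; adjusted p = 0.00625).

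Hedgehog ligands reach the kidney from the epithelium and are read through PTCH1, SMO and the GLI factors. The ligands *Shh*, *Ihh* and *Dhh* were at most 0.488 normalised CPM in any of the 8 libraries. Of 14 genes listed 11 were tested, 1 was called higher in NP and 5 higher in SP (54.5% called, against 34.8% of all genes; 2 and 7 with the block, 2 and 6 without number 1; median log2 fold change -0.69). The transcription factors *Gli1*, at 19.02, 10.8, 29.3 and 22.4 in NP and 173, 86.3, 188 and 167 in SP (-2.88, adjusted p = 1.0e-04), and *Gli2*, at 6.89, 10.9, 21.0 and 18.6 and 70.1, 91.7, 141 and 127 (-2.88, adjusted p = 1.5e-04), were higher in SP. *Ptch1*, a target of the same pathway, was at 189, 137, 154 and 186 and 181, 164, 199 and 211 and overlapped (-0.19, standard error 0.14, adjusted p = 0.339). It was called higher in SP only with the block without number 1 (-0.27; adjusted p = 0.0174). The co-receptors went in opposite directions, *Gas1* higher in NP (480.4 to 828 against 205 to 379; 1.1804, adjusted p = 0.00316) and *Boc* higher in SP (33.6 to 51.8 against 163 to 306; -2.46, adjusted p = 1.8e-05).

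Receptors and guidance molecules around GDNF were called in both directions, and *Gdnf* itself was not called. All 42 genes of this list were tested, 8 were called higher in NP and 16 higher in SP (57.1% called, 12 and 20 with the block; median log2 fold change -0.29). *Gfra1*, the co-receptor that binds GDNF, was at 147, 223, 166 and 203 normalised CPM in NP and 5.74, 17.8, 10.9 and 9.64 in SP (4.03, adjusted p = 5.5e-06). *Slit1*, a repellent, was at 55.7, 56.4, 76.0 and 71.4 and 0.867, 1.37, 0.383 and 0.642 (5.20, adjusted p = 2.1e-07) and its receptor *Robo2*, which limits where GDNF is made, at 395, 445, 571 and 619 and 57.7, 105, 91.2 and 107 (2.49, adjusted p = 2.3e-05), so that ligand and receptor were both higher in NP. *Ret* was at 8.93, 2.13, 0.973 and 1.03 in NP and 5.15, 3.49, 5.31 and 3.53 in SP and was not called (-0.67, adjusted p = 0.304), but without NP 1 it was called higher in SP (-1.19; adjusted p = 0.00306). The gate removed cells with RET on their surface, and E12.5 ureteric bud libraries held 266 to 395. On the stromal side, *Ntn1*, the guidance cue netrin 1, was at 26.7, 25.6, 35.2 and 39.1 in NP and 279, 755, 740.3 and 901 in SP (-4.25, adjusted p = 1.2e-05). The semaphorins *Sema3a* (3.57, 9.42, 9.85 and 8.05 against 18.9, 73.1, 56.3 and 70.8; -2.59, adjusted p = 0.00142) and *Sema6a* (23.0 to 45.5 against 164 to 215; -2.45, adjusted p = 1.3e-05) and the ephrin receptor *Epha3* (0.906 to 1.47 against 10.6 to 17.6; -2.88, adjusted p = 3.4e-06) were higher in SP.

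Most of the called genes of several growth factor systems were higher in SP. Of 22 genes listed for PDGF, VEGF, KIT, HGF and CXCL12, 21 were tested, 5 were called higher in NP and 12 higher in SP (81.0% called, 5 and 15 with the block; median log2 fold change -1.52). *Pdgfa*, a ligand of PDGFRA, was higher in NP, at 75.5, 80.9, 82.7 and 77.7 normalised CPM against 20.1, 22.8, 22.3 and 26.5 (1.75, adjusted p = 4.2e-06), while the receptor *Pdgfrb* was higher in SP, at 31.5, 9.59, 9.01 and 9.96 against 176, 202, 213 and 183 (-3.80, adjusted p = 2.5e-05). The other PDGF ligands divided: *Pdgfc* was higher in NP (107, 331, 261 and 296 against 26.2, 126, 107 and 104; 1.54, adjusted p = 0.0454), and *Pdgfb* (1.30 to 8.25 against 9.22 to 10.4; -1.67, adjusted p = 0.0104) and *Pdgfd* (0.831 to 1.67 against 6.18 to 9.96; -2.07, adjusted p = 1.7e-05), ligands of PDGFRB, were higher in SP. The call of *Pdgfb* was lost without number 2, 3 or 4 (-1.46, -1.47 and -1.57; adjusted p = 0.0719, 0.0825 and 0.0686) and by edgeR on the recovered reads (adjusted p = 0.0576). The call of *Pdgfc* was lost on leaving out NP 2, NP 3, NP 4, SP 3 or SP 4, with log2 fold changes of 1.36, 1.47, 1.41, 1.69 and 1.67 and adjusted p-values of up to 0.111, and without number 2, 3 or 4 (1.59, 1.62 and 1.55; adjusted p of up to 0.139). *Met*, the receptor of HGF, was higher in NP, at 26.5, 86.5, 81.4 and 88.5 against 3.36, 17.1, 16.5 and 12.4 (2.47, adjusted p = 0.00485), and *Hgf* higher in SP, at 1.26, 2.11, 1.86 and 2.08 against 11.4, 39.5, 31.8 and 36.6 (-3.32, adjusted p = 6.4e-05). The counts of this list include *Pdgfra*, which the sort used. *Cxcl12*, a chemokine, was at 70.2, 104, 123 and 89.2 in NP and 515, 845, 895 and 749 in SP (-2.94, adjusted p = 7.0e-06), and its receptor *Ackr3* was higher in NP (87.6 to 155 against 53.1 to 70.8; 0.87, adjusted p = 0.0044). *Kit* (11.9 to 17.4 against 37.97 to 63.2; -1.82, adjusted p = 6.7e-05) and its ligand *Kitl* (4.89 to 8.65 against 19.5 to 32.4; -1.74, adjusted p = 1.6e-04) were both higher in SP. *Vegfa* was not called (159.6 to 267 against 271 to 369.8; -0.44, adjusted p = 0.0888), though no NP library reached an SP library, and was called higher in SP with the block (adjusted p = 0.00843).

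Most of the called insulin-like growth factor genes were higher in SP. Of 16 listed 15 were tested, 9 were called higher in SP and 1 higher in NP (66.7% called; median log2 fold change -0.88). *Igf2* was at 1658, 2049, 1843 and 1852 normalised CPM in NP and 3801, 5202, 5139.7 and 4862 in SP (-1.35, adjusted p = 4.5e-05). *Igfbp3*, a secreted binding protein, was at 9.70, 6.74, 5.14 and 8.10 and 98.3, 141, 90.4 and 125 (-3.78, adjusted p = 1.4e-06). The receptor *Igf1r* was not called (139.7 to 283 against 125 to 308; -0.14, adjusted p = 0.782).

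Most matrix genes were higher in SP. Of 34 collagen chains listed 32 were tested, 23 were called higher in SP and 3 higher in NP (24 and 5 with the block; median log2 fold change -1.997). *Col1a1* was at 96.5, 75.2, 62.0 and 107 normalised CPM in NP and 2283, 3396, 3802 and 3572 in SP (-5.25, adjusted p = 2.6e-07). *Col1a2*, which joins it in type I collagen, was at 54.3, 25.2, 25.0 and 24.7 and 1319, 1681, 1740.3 and 1595 (-5.65, adjusted p = 3.5e-07). *Col3a1* was at 78.6, 21.3, 26.4 and 23.2 and 1611, 2122, 2204 and 2164 (-5.93, adjusted p = 2.4e-06). *Col6a3* was at 7.26, 1.74, 2.56 and 3.96 and 132, 282, 318 and 407 (-5.89, adjusted p = 4.6e-06). These 4 genes separated the groups fully, and for *Col3a1*, *Col1a2* and *Col6a3* the highest NP library was NP 1. *Col2a1*, the collagen of cartilage, was the reverse, at 435, 227, 547 and 403 in NP and 65.3, 30.2, 29.5 and 15.4 in SP (3.59, adjusted p = 1.0e-04), followed by *Col13a1* (14.9 to 26.4 against 2.76 to 4.55; 2.19, adjusted p = 3.1e-05) and *Col18a1*, a basement membrane collagen (115.4 to 163 against 48.9 to 66.7; 1.25, adjusted p = 1.8e-04).

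Of 30 matrix glycoproteins and proteoglycans, all tested, 24 were called higher in SP and 3 higher in NP (median log2 fold change -1.97). *Bgn*, the proteoglycan biglycan, was at 8.22, 2.697, 2.17 and 3.32 normalised CPM in NP and 121, 125, 134 and 130.03 in SP (-4.79, adjusted p = 2.4e-06). *Postn*, periostin, was at 8.19, 4.07, 5.82 and 6.15 and 132, 157, 154 and 229 (-4.58, adjusted p = 6.0e-07). *Fbln5*, needed for elastic fibres, was at 1.26, 2.31, 1.45 and 2.11 and 50.6, 72.6, 71.0 and 62.4 (-4.55, adjusted p = 2.4e-07). The 3 on the NP side were *Spock2*, the syndecan *Sdc4* (79.9 to 97.0 against 14.6 to 19.2; 2.35, adjusted p = 1.6e-06) and the glypican *Gpc1* (247 to 333 against 167 to 227; 0.64, adjusted p = 0.00643, and 0.56 with 0.0771 without number 4).

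Of 30 laminin and integrin genes 26 were tested, 5 were called higher in NP and 10 higher in SP (57.7% called; median log2 fold change -0.24). Beside *Itga8*, which the sort used and the counts include, its ligand *Npnt*, nephronectin, was higher in NP (28.9, 29.5, 35.4 and 34.9 normalised CPM against 1.25, 4.41, 2.82 and 2.66; 3.19, adjusted p = 9.2e-06), as was the epithelial laminin chain *Lama5* (152, 62.7, 186 and 172 against 17.8, 23.0, 28.1 and 25.6; 2.46, adjusted p = 2.8e-04). The mesenchymal chain *Lama2* was higher in SP (5.36, 4.56, 6.13 and 5.56 against 56.0, 86.5, 79.4 and 83.7; -3.58, adjusted p = 5.1e-07), with the fibronectin receptor subunit *Itga5* (73.4 to 91.3 against 264 to 413; -2.09, adjusted p = 8.5e-06). Of 25 cadherins and junction genes 18 were tested, 7 were called higher in NP and 1 higher in SP (44.4% called, against 34.8% of all genes; 7 and 2 with the block, 6 and 2 without number 1). *Cdh4*, R-cadherin, was at 87.7, 84.6, 113 and 125 in NP and 2.49, 4.05, 2.49 and 4.18 in SP (4.60, adjusted p = 3.5e-07). The polarity gene *Pard6b* was at 40.7 to 74.2 and 6.07 to 10.3 (2.63, adjusted p = 2.4e-05), and the claudin *Cldn6* at 17.6, 14.1, 8.04 and 10.9 and 0.271, 2.44, 0.335 and 0.138 (3.04, adjusted p = 1.5e-04). *Ovol1*, a zinc finger gene of epithelia, was at 15.4 to 19.2 and 0.138 to 0.921 (3.68, adjusted p = 9.1e-07).

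Hox genes, which set position along the body, were called in both directions. Of 39 listed 35 were tested, 15 were called higher in NP and 6 higher in SP (60.0% called, 19 and 9 with the block; median log2 fold change 0.44). In the Hoxb cluster all 9 tested genes were called higher in NP. *Hoxb8* was at 78.8, 64.9, 65.5 and 74.4 normalised CPM in NP and 9.37, 7.56, 6.12 and 6.84 in SP (3.09, adjusted p = 6.6e-07). *Hoxb9* was at 260.0, 313, 271 and 269 and 56.6, 48.5, 34.8 and 31.5 (2.71, adjusted p = 4.6e-06). *Hoxb1* was at 4.40, 6.596, 7.02 and 5.30 and 0.379, 0.101, 0.287 and 0.0459 (2.50, adjusted p = 3.8e-06). *Hoxb5* was higher in NP within each number, at 109.7, 56.5, 71.7 and 56.3 against 34.9, 13.7, 19.7 and 12.98 (1.86, adjusted p = 0.00163), with number 1 the highest in both groups. In the Hoxa cluster *Hoxa3* (34.2, 16.3, 31.9 and 31.7 against 47.8, 42.9, 76.7 and 64.2; -1.01, adjusted p = 0.0151) was higher in SP, whereas *Hoxa9* (90.8 to 129 against 48.7 to 66.8; 0.98, adjusted p = 7.3e-04) and *Hoxa11* were higher in NP. *Hoxc4* was higher in SP (50.1, 33.96, 55.1 and 46.02 against 92.6, 71.5, 111 and 85.4; -0.95, adjusted p = 0.00299), as was *Hoxd13* (1.57, 1.37, 0.792 and 0.720 against 8.94, 4.07, 3.92 and 3.99; -1.51, adjusted p = 0.00132), while its neighbour *Hoxd12* was higher in NP (19.98, 51.9, 34.9 and 39.5 against 6.28, 11.3, 11.6 and 10.9; 1.73, adjusted p = 0.00133), as was *Hoxd11* (159.6 to 173 against 109 to 132; 0.52, adjusted p = 0.00373). The call of *Hoxa3* was lost without number 3 or 4 (-0.94 and -1.02; adjusted p = 0.075 and 0.0739), and that of *Hoxd11* without number 4 (0.48; adjusted p = 0.0672). *Hoxa9*, *Hoxd12* and the Hoxb cluster as a whole are singled out here after their values were seen.

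**Figure D4:**
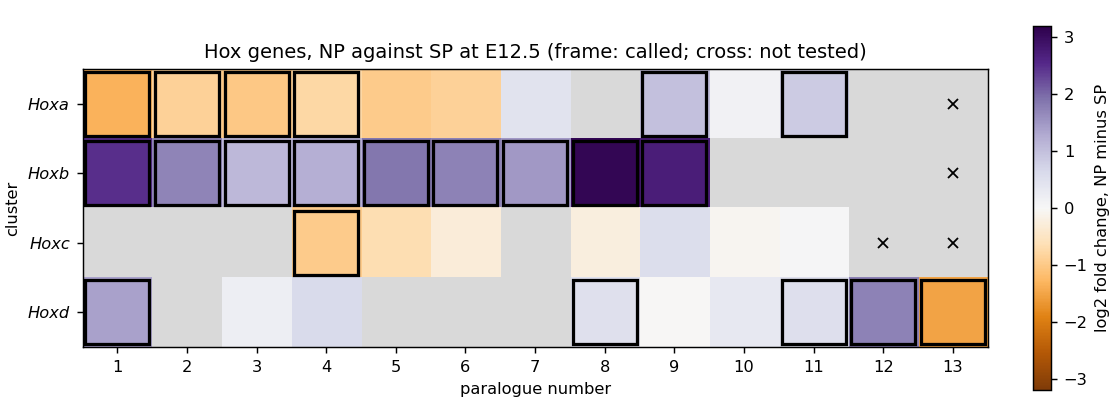
Log2 fold change (NP minus SP, colour) of the Hox genes by cluster (rows) and paralogue number (columns), with a black frame around called genes, a cross where a gene was not tested, and plain grey where the cluster has no gene. The Hoxb row is higher in NP throughout, and the framed genes higher in SP sit at the low numbers of Hoxa and Hoxc and at *Hoxd13*.

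Genes of the cell cycle did not lie on one side. All 30 were tested, 6 were called in each direction (40.0% called against 34.8% of all genes; with the block 10 higher in NP and 8 higher in SP), and the median log2 fold change was -0.02. The cyclin-dependent kinase inhibitor *Cdkn1c* was higher in SP, at 468, 754, 541 and 599 normalised CPM against 1241, 1739, 1493 and 1625 (-1.38, adjusted p = 1.7e-04), and so was *Ccnd2* (234 to 539.9 against 561 to 1219.5; -1.16, adjusted p = 0.0138). The replication helicase gene *Mcm7* was higher in NP (448, 507, 433 and 398 against 273, 252, 238 and 204; 0.88, adjusted p = 4.6e-04), as was *Myc* (148, 158, 149 and 138 against 121, 46.5, 47.5 and 58.8; 1.21, adjusted p = 0.00714). The call of *Ccnd2* was lost without number 3 or 4 (-1.17 and -1.20; adjusted p = 0.077 and 0.0643), and that of *Myc* without number 2 or 3 (1.04 and 1.076; adjusted p = 0.0527 and 0.0618). Of 20 genes of glycolysis and its transporters 6 were called higher in NP and 1 higher in SP (35.0% called; median 0.20), and 9 and 4 with the block. *Eno1* (525 to 740.4 against 325 to 382; 0.81, adjusted p = 9.7e-04) and *Gapdh* (716 to 969 against 444 to 551; 0.70, adjusted p = 0.00195) were higher in NP and the glucose transporter *Slc2a3* higher in SP (9.11, 3.80, 3.24 and 3.99 against 18.04, 31.0, 21.8 and 33.0; -2.21, adjusted p = 3.4e-04).

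The immediate early genes that were called, a group that dissociation can induce, were higher in SP. All 21 genes of the list were tested, 10 were called higher in SP and 0 higher in NP (47.6% called; median log2 fold change -1.77); with the block the calls were 19, and without number 1 they were 18. *Egr1* was at 290.0, 46.4, 50.5 and 86.2 normalised CPM in NP and 1489, 556, 437 and 784 in SP (-3.04, adjusted p = 0.00276). *Fos* was at 145, 43.6, 55.9 and 66.6 and 1009, 231, 179.6 and 302 (-2.25, adjusted p = 0.00968, and -2.28 with 0.0547 without number 4); within every number SP was above NP. *Klf6* was at 109, 27.2, 26.8 and 26.1 and 394, 206, 164 and 199 (-2.54, adjusted p = 0.00217). *Hspa1a* was not called (adjusted p = 0.484) until number 1 was left out or the block was used (adjusted p = 9.1e-06 and 2.6e-05). The part of handling in these differences was not tested.

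Other cells that the gates could have let through were looked for by their markers. Of 12 red cell markers 11 were in the table and 9 were tested, all 9 called higher in SP; their summed level was 10.8 to 79.8 normalised CPM in NP libraries and 306 to 2959 in SP libraries. The embryonic globin *Hbb-y* was at 5.57, 53.0, 2.11 and 3.96 in NP and 207, 2080.0, 2006 and 665 in SP (-6.66, adjusted p = 5.4e-04). *Hba-x* was at 0.677, 9.44, 0.611 and 0.592 and 33.5, 363, 433 and 92.1 (-5.86, adjusted p = 6.7e-04). *Hba-a1* was at 0.585, 5.42, 0.294 and 0.720 and 23.9, 197, 245 and 76.7 (-5.50, adjusted p = 3.4e-04). Markers under 1 in most NP libraries, such as *Hba-x* and *Hba-a1*, passed the filter on low values through their SP libraries. The count of 9 called higher in SP is therefore partly set by the filter. The defining erythroid regulator *Klf1* was at 0.0981 to 0.317 in NP and 0.138 to 0.625 in SP. *Hba-a1* has a near-identical copy, and how the counting treated reads that fit more than 1 gene is not given in the sources used here. The gates held no marker of red cells, and what part red cells or free globin RNA had in the SP libraries was not tested.

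Of 11 ureteric bud markers 10 were in the table, 8 were tested, 2 were called higher in NP and 2 higher in SP (50.0% called, against 34.8% of all genes). Without number 1 the calls were 1 and 3, and the median log2 fold change went from 0.44 to -0.02. Those that define the bud most closely were low and highest in NP 1: *Calb1* was at 9.82, 2.53, 0.770 and 0.412 normalised CPM in NP and 0.217, 3.39, 0.287 and 0.321 in SP, against 433 to 682 in the E12.5 bud libraries, and *Wnt9b* at 3.48, 0.539, 0.136 and 0.129 and 0.0542, 0.746, 0.0956 and 0, against 165 to 218. *Krt8* was called higher in NP (10.3, 3.29, 1.68 and 2.11 against 0.108, 2.06, 0.669 and 0.367; 1.43, adjusted p = 0.0394), a call that was lost on leaving out NP 1 (0.98), NP 2, SP 1, SP 3 or SP 4, with adjusted p-values of up to 0.0955, and without any of the numbers (0.78 without number 1), with values of up to 0.106. The summed level of the list was 117 in NP 1 against 37.9 to 48.2 in the other NP libraries and 91.5 to 125 in SP. The list holds *Wnt11*, given above with the WNT genes, which made up most of the sum in every SP library. *Gata3*, a bud marker that stroma can also make, was higher in SP (6.59, 1.05, 0.815 and 0.437 against 22.9, 11.4, 11.52 and 9.04; -2.46, adjusted p = 0.00385). What part bud cells had in the NP values of epithelial genes was not tested. Endothelial markers were low in both groups, with a summed level of 25.4 to 53.6 in NP and 30.8 to 43.9 in SP; of 9 tested, 2 were called in each direction (44.4% called), with *Cldn5* higher in NP (2.01, adjusted p = 1.6e-04) and *Tek* higher in SP (-1.59, adjusted p = 2.8e-04). All 12 macrophage markers summed to at most 2.74 in a library of either group. Of the neural crest and neuronal markers, *Sox10* and *Foxd3* were at most 0.215, and *Elavl4* was the 1 called of 4 tested (10.3 to 21.0 in NP, 1.57 to 1.72 in SP; 2.77, adjusted p = 1.0e-05). With the block 2 of these markers were called higher in NP, and without number 1 the calls were 1 in each direction. Markers of adrenal cortex and gonad summed to at most 3.47 and those of mesothelium to at most 3.47. Of the muscle markers only *Des* was tested, higher in NP (193 to 215 against 70.9 to 149; 0.82, adjusted p = 0.013, and 0.86 with 0.0605 without number 4), with *Myf5*, *Myod1* and *Myog* at most 0.246.

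Pericyte genes were higher in SP: of 6 listed 5 were tested and all 5 called, with *Rgs5* at 6.93, 1.99, 1.52 and 1.75 normalised CPM in NP and 43.3, 54.1, 39.0 and 39.6 in SP (-3.64, adjusted p = 3.0e-05). *Cspg4*, which encodes NG2, was at 14.9, 18.6, 22.2 and 28.1 and 43.2, 96.2, 113 and 113 (-2.01, adjusted p = 8.7e-04). *Ren1*, the renin gene, was at 0.0616, 0, 0 and 0 and 0.704, 0.786, 0.574 and 1.06 and was not tested. Of the cartilage and sclerotome markers, *Sox9* was higher in SP (34.8, 7.72, 17.0 and 13.2 against 178, 80.2, 126 and 77.4; -2.70, adjusted p = 8.0e-04) and *Pax1* too (0 to 0.0308 against 1.24 to 2.94; -1.46, adjusted p = 2.1e-04), opposite to *Col2a1*. None of the 5 sex-linked genes was called, while with the block *Xist*, *Eif2s3y* and *Ddx3y* were called higher in SP (adjusted p = 0.0239, 0.0141 and 0.0464).

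The difference between NP and SP at E12.5 was set against the same difference at E11.5, with the interaction tested over 16 libraries. It differed for 388 of 14438 genes (2.69%; limma), 231 of them more positive (1.60%) and 157 more negative (1.09%) at E12.5. Of the 388, 246 went in the same direction at both ages and further at E12.5, 44 in the same direction but less far, and 98 in opposite directions. With the replicate number as a block, at both ages, the count was 924, and in a fit of all 36 libraries it was 748. Without SP 1 it rose to 855 (418 more positive and 437 more negative). It rose to 683 without the E11.5 SP library numbered 4 and to 1073 without both libraries numbered 1 of E12.5. Without the E12.5 SP library numbered 4 it was 240. *Six2* was 1 of the 388. It was at 557 to 641 normalised CPM in E11.5 NP and 14.5 to 29.5 in E11.5 SP, a log2 fold change of 4.82 against 7.29 at E12.5 (difference 2.47, standard error 0.48; adjusted p = 0.0104). For *Foxd1* the log2 fold change was -2.69 at E11.5, with 265 to 563 in SP, and the difference of -1.03 was not called (adjusted p = 0.0966); without the E11.5 SP library numbered 4 it was (-1.20; adjusted p = 0.0289).

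Among the genes whose difference was more positive at E12.5, some were held by SP at E11.5 and lower in SP at E12.5. *Upk3b*, a mesothelial uroplakin, was at 2.50 to 4.74 normalised CPM in E11.5 SP and at 0 to 0.0956 in E12.5 SP, and at 0 to 0.0779 in E11.5 NP and 0.0226 to 0.0923 in E12.5 NP (difference 2.20, adjusted p = 1.9e-05). *Col9a1* was at 199 to 385 in E11.5 SP and 39.2, 32.6, 39.4 and 23.1 in E12.5 SP, against 34.6 to 53.3 and 33.4, 34.2, 37.99 and 34.2 in NP (difference 2.73, adjusted p = 1.2e-04). *Emx2*, a homeobox gene of the early kidney, lay on opposite sides at the 2 ages: it was at 0.128 to 1.13 in NP and 2.18 to 9.54 in SP at E11.5, and at 5.20, 5.05, 4.60 and 6.35 in NP and 0.271, 0.968, 0.287 and 0.229 in SP at E12.5 (difference 4.38, adjusted p = 6.8e-05). *Slc45a3*, a solute carrier gene, overlapped at E11.5 (6.04 to 8.51 in NP and 5.59 to 8.34 in SP) and was higher in NP at E12.5 (16.5 to 19.01 against 2.82 to 4.01; difference 2.04, adjusted p = 6.8e-05). *Efhd2*, a calcium-binding protein gene, was at 146 to 168 in E11.5 SP and 53.7 to 64.7 in E12.5 SP (difference 1.503, adjusted p = 6.8e-05).

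Most of the named genes whose difference was more negative at E12.5 were lower in SP at E11.5 than at E12.5. *Trpm5*, an ion channel gene, was at 0.365 to 1.43 normalised CPM in E11.5 SP and at 11.9, 10.4, 11.7 and 14.7 in E12.5 SP (difference -2.78, adjusted p = 1.9e-05). *Cxcl13*, a chemokine, was at 1.64 to 3.93 and 22.2, 16.5, 19.99 and 22.1 (difference -2.61, adjusted p = 2.3e-05), and the collagen chain *Col8a2* at 9.74 to 17.2 and 33.3, 40.1, 50.4 and 48.3 (difference -2.23, adjusted p = 1.2e-04). *Aox3*, an aldehyde oxidase gene, was at 0.390 to 0.778 and 4.28, 5.58, 7.65 and 10.2 (difference -2.40, adjusted p = 1.2e-04). In NP, these 4 genes were at most 4.99 at either age. *Dlk1*, an imprinted gene of immature cells, was instead lower in NP at E12.5, at 13.2, 8.21, 9.51 and 9.47 against 32.4 to 80.9 at E11.5, and higher in SP, at 93.8, 125, 139.6 and 161 against 68.1 to 97.3 (difference -3.10, adjusted p = 1.2e-04). Litters differ between the ages and are the replicates of the test. What else differed between the ages, such as the day of sorting, is not given in the sources used here and cannot be told apart from age.

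**Figure D5:**
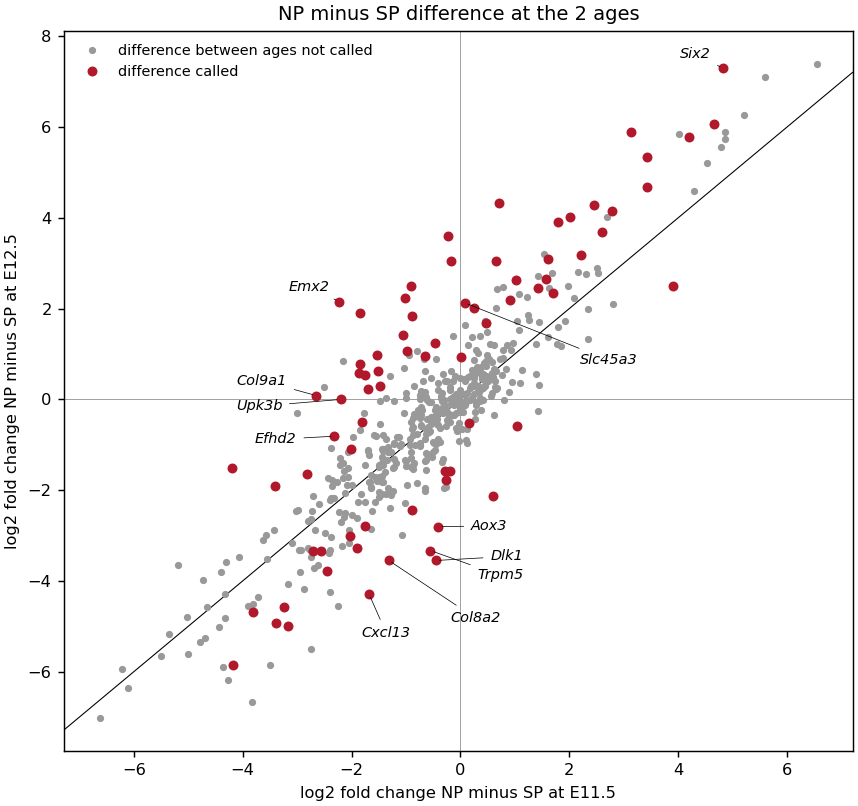
Log2 fold change (NP minus SP) at E11.5 (x axis) and at E12.5 (y axis) of 522 genes tested at both ages (those of the lists, the leading genes and the genes named for their interaction), with genes whose difference between the ages was called in red and named where the text describes them. Grey points lie along the diagonal line of equal difference, and *Emx2*, *Upk3b* and *Dlk1* lie away from it.

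Set against the ES-derived pair, the difference between NP and SP at E12.5 departed for 3560 of 14931 genes (23.8%; limma), 1396 more positive (9.35%) and 2164 more negative (14.5%) at E12.5. In 1319 of them both pairs went the same way and E12.5 further, and in 1867 they went in opposite directions. *Rspo1* had the smallest p among the more positive: iNP held 14.5 to 20.2 normalised CPM and iSP 11.6 to 18.3, a log2 fold change of 0.29 against 6.06 at E12.5 (difference 5.77, adjusted p = 4.0e-11). *Irx3*, an Iroquois homeobox gene, was at 23.3 to 29.3 in iNP and 179 to 211 in iSP, the reverse of 6.01 to 8.98 in NP and 0.383 to 1.19 in SP (difference 5.06, adjusted p = 1.3e-10). Among the more negative, *Lsamp* and *Ntm*, related cell adhesion genes, were at 5.77 to 7.83 and 13.6 to 16.8 in iNP and at 1.55 to 2.03 and 6.84 to 8.55 in iSP, against 44.0 to 58.9 and 45.7 to 70.7 in E12.5 SP (differences -5.29 and -5.66; adjusted p = 4.0e-11 and 4.0e-11). *Arap1* was level in the ES-derived cells (30.7 to 34.4 and 29.5 to 32.6) and higher in E12.5 SP (11.04 to 13.2 against 123 to 141; difference -3.41, adjusted p = 4.0e-11).

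*Six2* and *Foxd1* were closer together between the cell types in the ES-derived pair. *Six2* was at 116 to 152 normalised CPM in iNP and 12.04 to 16.3 in iSP (log2 fold change 3.284; difference 4.01, adjusted p = 4.5e-06). *Foxd1* was at 6.05 to 8.86 and 11.4 to 19.2 (log2 fold change -0.99; difference -2.73, adjusted p = 1.6e-07). *Bmp7* and *Postn* are named here after their values were seen. *Bmp7* was at 88.6 to 137 in iNP and 143 to 165 in iSP (difference 4.62, adjusted p = 1.7e-09), and *Postn* was higher in iNP (19.6 to 35.6) than in iSP (6.14 to 8.38; difference -6.51, adjusted p = 4.2e-10). Strain, culture and the pooling of embryoid bodies differ between the pairs and cannot be told apart from the origin of the cells.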

How the data were processed

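The authors trimmed reads with cutadapt, aligned them with STAR, counted reads on genes and scaled CPM with edgeR normalisation factors; the deposited signal values are these normalised CPM, and a second deposited table holds only the authors' own comparisons (log2 fold changes, p-values and false discovery rates) and was not used. The submitters' notes name GRCh38 while the gene identifiers are of mouse; positions here are GRCm38 with the GENCODE M21 names, which held 99.5% of the 22761 identifiers. How reads that fit several genes were treated is not given in the sources used here. Dividing each library's values by the worth of 1 read gave whole numbers, within 0.01, for 100% of values, and these recovered reads gave the depths. Intervals and limits from reads cover counting error only.

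A gene was tested where 4 or more of the 8 libraries reached 1 normalised CPM. The test was limma 3.58.1 (moderated, trend, R 4.3.3) on log2 of the value plus 1, without a block, with Benjamini-Hochberg adjustment over all genes tested and a threshold of 0.05. Interactions were fitted over 16 libraries in the same way. Fold changes on this scale understate the change of low genes. The alternatives were a pseudocount of 0.1, other filters, a fit of all 36 libraries, quantile and median-of-ratios scaling, edgeR 4.0.16 and DESeq2 1.42.0 on those reads, a test for changes over 1 on the log2 scale, the replicate number as a block, and each library left out. Leaving out both libraries of a number, with or without the block, was added after the data were seen. Whether the numbers pair the libraries was checked from deviations from the group means: at E12.5 the 4 same-numbered pairs, matched by the titles, correlated at 0.54 to 0.70, and the others at -0.62 to 0.37, so that the block is reported beside results it changes. No source says that numbers mark a shared litter, and NP and SP of a number may come from the same embryos; the p-values without the block treat them as separate samples.

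The genes named are the 4 markers, the 12 genes with the largest called fold change in each direction whose groups do not overlap (predicted genes left out), the up to 4 called members of each list with the largest fold change in each direction, transcription factors, ligands and receptors of the first 12 lists that a sentence compares, and the genes with the smallest p in each direction of the interactions (5 against E11.5, 3 against the ES-derived pair); members of a list that were not called may be named with their values. Some genes that these rules take in are not reported here. The comparison, the members and the lists were chosen with earlier results of these data known. On simulated counts for 13526 genes of the E12.5 comparison, 48% of genes changed by 1 on the log2 scale and 95% of those changed by 2 were called in the right direction, with 0.0525% of unchanged genes called. The simulation changed only 100 genes by each size and gave same-numbered libraries no shared deviation. Both settings differ from the data, so these shares need not hold for the data. Python 3.11.15, pandas 2.3.3 and numpy 2.4.6 were used for summaries. Promoters and motifs came from RefSeq tables of GRCm38.p6, with chromosome 18 left out.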

Additional observations from a re-analysis of the deposited data

Results flagged for a closer look

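In 47 of 370 sets of 4 libraries (185 named genes in 2 groups), 1 library lay outside the other 3 by Dixon's criterion for 4 values; chance marks about 1 set in 20. Of these, 41 fell on libraries numbered 1. NP 1 was the high one for *Hspa1a* (194 normalised CPM), *Gata6* (7.94), *Tbx2* (16.5), *Tbx3* (8.56), *Wnt11* (20.9), *Pdgfrb* (31.5), *Pdgfb* (8.25), *Col1a2* (54.3), *Col3a1* (78.6), *Pard6b* (74.2), *Klf6* (109) and *Rgs5* (6.93), most of them genes higher in SP. It was the low one for *Eya1* (165), *Wt1* (326), *Meis2* (239), *Aldh1a2* (188), *Hey1* (65.9), *Met* (26.5) and *Elavl4* (10.3). SP 1 was the high one for *Hspa1a* (512), *Pard6b* (10.3) and *Hoxd13* (8.94). It was the low one for *Pdgfra* (204), *Ddr2* (83.3), *Hic1* (299), *Sall1* (88.8), *Cdh6* (19.9), *Meis2* (386), *Cyp26b1* (7.85), *Dhrs3* (59.3), *Wnt5a* (44.5), *Ror1* (23.6), *Ror2* (93.0), *Frzb* (9.48), *Hes1* (60.2), *Ntn1* (279), *Kit* (37.97), *Pdgfc* (26.2), *Col3a1* (1611), *Hoxd12* (6.28) and *Cspg4* (43.2). NP 2 stood out for *Hba-x* (9.44, high), *Mki67* (6.45, low) and *Hoxa3* (16.3, low), and SP 2 for *Cldn6* (2.44, high), *Calb1* (3.39, high) and *Gli1* (86.3, low). Handling, litter and cell composition of the libraries cannot be told apart by the labels.

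The difference between NP and SP was not the same at E12.5 and E11.5 for 388 genes. Among the named ones the interaction on the log2 scale was 2.47 for *Six2*, 2.20 for *Upk3b*, 2.73 for *Col9a1*, 4.38 for *Emx2*, 2.04 for *Slc45a3* and 1.503 for *Efhd2*, and it was -2.78 for *Trpm5*, -2.61 for *Cxcl13*, -2.23 for *Col8a2*, -2.40 for *Aox3* and -3.10 for *Dlk1*. Against the ES-derived pair the difference departed for 3560 genes, by 5.77 for *Rspo1*, 5.06 for *Irx3*, 4.01 for *Six2* and 4.62 for *Bmp7*, and by -5.29 for *Lsamp*, -5.66 for *Ntm*, -3.41 for *Arap1*, -2.73 for *Foxd1* and -6.51 for *Postn*.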

How the results depend on the processing

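The count of genes called between NP and SP was 4789. It was 7961 with the replicate block, 8438 with the block without number 1, 1027 when changes had to be over 1 on the log2 scale, and 2910 to 6027 on leaving out 1 library or both of a number. The other settings gave 3602 to 6640. All 4789 genes were also called with the block, and 95.0% of them by edgeR and 99.3% by DESeq2 on recovered reads, none in the other direction. With the block the calls among listed genes were over 1.5 times as many for immediate early (19 against 10), Notch (12 against 7), glycolysis (13 against 7), neural crest (2 against 1) and sex-linked genes (3 against 0). The interaction against E11.5 gave 748 genes in a fit of all 36 libraries, 924 with the replicate block and 240 to 1073 on leaving libraries out, against 388; without SP 1 48.9% of the calls were positive, against 59.5%. The interaction against the ES-derived pair gave 4984 with the block and 3111 to 4552 on leaving libraries out, against 3560. Same-numbered pairs correlated at -0.35 to 0.51 at E11.5 and at -0.29 to 0.30 in the ES-derived groups, not all over 0.1. The values thus do not show that the number pairs those libraries. The interaction counts with the block paired them by number all the same.

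Of the log2 fold changes of the 178 named genes that were tested, 48 lost their call when changes had to be over 1, and 1, 6, 6 and 13 without number 1, 2, 3 or 4; *Hoxa11*, *Hoxd11* and *Des* lost it in the fit of all 36 libraries (adjusted p = 0.0661, 0.197 and 0.201), *Krt8* and *Pdgfc* without the filter (0.0564 and 0.0632), *Krt8* and *Pdgfb* by edgeR (0.0547 and 0.0576), and *Pdgfc* where all 8 libraries had to reach 1 (0.0503). The sign changed only in genes that were not called: *Gdnf* (0.0316 with quantile normalisation, 0.0115 with the block without number 1, -0.100 to 0.116 on leaving libraries out), *Hoxc11* (-0.0026 by edgeR, -0.0036 by DESeq2, -0.0758 to 0.164), *Bmp4* (-0.0009 to 0.66), *Igf1r* (-0.421 to 0.093), *Mki67* (-1.48 to 0.50) and *Col9a1* (-0.0802 to 0.186). The cause was not tested. At 18.6 M reads in the shallowest library, genes that reached 1 normalised CPM in fewer than 4 of the 8 libraries were not compared. SP had fewer reads than NP in the median.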

Other observations

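Genes that set the libraries numbered 1 and 2 apart, chosen after their values were seen, moved the same way in NP and SP. *Fosb*, an immediate early gene, was at 193, 9.51, 19.7 and 24.1 normalised CPM in NP 1 to 4 and at 1158, 91.0, 101 and 145 in SP 1 to 4. *Trib3*, a pseudokinase gene, and *Asns* were lowest in number 1: *Trib3* was at 4.001, 113, 92.2 and 74.9 in NP and at 2.49, 64.8, 61.6 and 57.2 in SP, and *Asns*, asparagine synthetase, at 31.0, 153, 139 and 151 and at 35.6, 139.8, 121 and 146. The long noncoding RNAs *Firre* and *Meg3* were lowest in number 2, at 90.2, 4.76, 65.7 and 36.1 and at 14.1, 0.0981, 4.71 and 2.42 in NP, and at 42.4, 6.27, 35.6 and 22.5 and at 85.6, 9.07, 48.6 and 31.1 in SP.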
